A study of Mus musculus with 6 samples.

Results

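The mouse genes with Kcn symbols encode the potassium channels of the cell membrane and the subunits that travel with them. Members were all genes of the RNA counts whose symbol is Kcn followed by a letter, without symbols ending in os, ot or -ps. The rule took 97 of 32285 genes, and no measured value entered it. Of the members, 94 encode proteins and 3 are the non-coding RNAs Kcnq1ot1, Kcnmb4os1 and Kcnmb4os2. Kcnab3os and Kcnd3os fell outside the rule. By role, the members split into 17 pore-forming subunits of the voltage-gated Kcna, Kcnb, Kcnc and Kcnd families, 10 electrically silent subunits (Kcnf, Kcng, Kcns, Kcnv), 5 Kcnq subunits, 8 Kcnh subunits, 8 channels gated by calcium or sodium (Kcnma, Kcnn, Kcnt, Kcnu), 15 inward rectifiers (Kcnj), 14 two-pore channels (Kcnk) and 16 auxiliary subunits (Kcnab, Kcne, Kcnip, Kcnmb). Kcnrg and the 3 non-coding RNAs were kept apart.

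Nuclei came from frozen brain tissue of C57BL/6J mice with the disease state brain tumor. All groups carry Foxr2 overexpression. Progenitors of the ganglionic eminence, the ventral forebrain zone that gives rise to GABAergic neurons, had been electroporated in utero with transposon vectors in which the CAG promoter, which is active in most cell types, drives Foxr2 and the reporters GFP and Akaluc. The first group, Foxr2 p53LOF, carries Foxr2 overexpression and p53 LoF from a Cas9 guide and holds 1 library. The second group, Foxr2 alone, carries Foxr2 overexpression only and holds 2 libraries. The disease state is brain tumor for both, but the authors report high-grade tumors for the first group and nonproliferative lesions for the second. RNA and open chromatin (ATAC) were read from the same nuclei of each library, so the 3 libraries are 6 samples in the archive. For Foxr2 alone replicate 2, only barcodes and called peaks were at hand; its counts were not analysed here. The age of the mice and the number of animals behind a library are not given in the sources used here. Tissue was taken without a stated sort, so neurons, glia and immune cells of the host are among the nuclei, and no brain without Foxr2 overexpression was analysed here.

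Potassium channels carry potassium out of the cell and so hold the resting potential, end action potentials and set how often a neuron fires. Voltage-gated members repolarise axons and dendrites, inward rectifiers and two-pore channels set the resting potential, and calcium-gated members couple activity to a pause in firing. In glia, the inward rectifiers clear the potassium that firing neurons release.

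Between the 2 libraries with counts, 8413 nuclei passed the filters in Foxr2 p53LOF and 8327 in Foxr2 alone, with a median of 5578 and 3632 unique molecules (UMIs) per nucleus. Nuclei were clustered without the Kcn genes and clusters were named from marker genes. This gave neuron-like (2278 nuclei in Foxr2 p53LOF and 4247 in Foxr2 alone), oligodendrocyte-like (1526 and 3024), astrocyte-like (1128 and 428), immune-like (1815 and 426) and oligodendrocyte precursor-like or OPC-like nuclei (95 and 170), and a committed precursor-like or COP-like class of 1257 nuclei in Foxr2 p53LOF, with 1 nucleus in Foxr2 alone. A further 314 and 31 nuclei had no class name and enter no class value. Of these, 75 and 29 formed cluster 18, led by Adgrl4, Slco1a4 and Dcn. Each class held at least 7 of its 8 own markers at 10 CPM or more (CPM are counts scaled to the same total in every class). Clusters were named from these lists, so this does not check the names. Other lists reached that level too: in Foxr2 p53LOF, immune-like nuclei held 8 of 8 oligodendrocyte markers and astrocyte-like nuclei 7 of 8 neuron markers. In COP-like nuclei of Foxr2 p53LOF, the 8 COP markers summed to 3333 CPM (7 of 8 at 10 CPM or more). The 8 OPC markers and the 8 oligodendrocyte markers summed to more, at 3808 and 4547 CPM (8 of 8 each). In Foxr2 p53LOF astrocyte-like nuclei, the 8 OPC markers summed to 2346 CPM beside 3145 CPM for the 8 astrocyte markers, against 603 and 11631 CPM in Foxr2 alone, so the label fits the Foxr2 alone nuclei more closely. Different clusters led each class in the 2 libraries, except for OPC-like nuclei: clusters 2 and 1 for neuron-like, 3 and 0 for oligodendrocyte-like, 6 and 11 for astrocyte-like and 5 and 12 for immune-like nuclei. The libraries shared 140 barcodes. Trp53, the targeted gene, was at 33.7 CPM in Foxr2 p53LOF against 12.9 CPM in Foxr2 alone, and such counts do not check a small edit. Foxr2 itself was at 42.7 and 3.63 CPM. In Foxr2 p53LOF, GFP was at 738 CPM in COP-like and 559 CPM in astrocyte-like nuclei. It was at 242 CPM in immune-like, 194 CPM in OPC-like, 189 CPM in oligodendrocyte-like and 76.7 CPM in neuron-like nuclei there. In the classes of Foxr2 alone it was at 19.2 to 149 CPM.

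With 1 library of counts per genotype there was no test. The UMIs of all nuclei in a class were pooled and given as CPM with exact Poisson 95% intervals, which cover counting error only. A member was called higher or lower at a 2-fold ratio with at least 10 CPM on one side, and the share of all genes called by the same rule is given beside the first count of each comparison. A ratio between the libraries compares those libraries, not the genotypes, and fewer transcripts per nucleus cannot be told apart from fewer expressing nuclei within a class.

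The promoters below belong to 7 members around which the results turn, chosen with the values known: Kcnh7, Kcna4 and Kcnip4 were high in neuron-like nuclei in RNA and promoter fragments, Kcnj10 and Kcnj16 low in both, Kcnip3 changed sides between the libraries and Kcnk13 was an immune and oligodendrocyte member. Each line gives the 150 bases before 1 RefSeq transcription start of the member in GRCm38.p6 (mm10), read 5′ to 3′ on its own strand. Kcnip4, Kcnj16 and Kcnip3 have more than 1 RefSeq start. For these, the start was chosen among windows without annotated exons, by the number of libraries with a peak there. Capitals mark GGGCGG, the core of the GC box, or CCGCCC, the same motif on the other strand. The windows are chr2:63184288-63184437 on the minus strand for Kcnh7, chr2:107290439-107290588 on the plus strand for Kcna4, chr5:49285660-49285809 on the minus strand for Kcnip4, chr1:172341060-172341209 on the plus strand for Kcnj10, chr11:110997337-110997486 on the plus strand for Kcnj16, chr2:127482500-127482649 on the minus strand for Kcnip3 and chr12:99964349-99964498 on the plus strand for Kcnk13.
Kcnh7: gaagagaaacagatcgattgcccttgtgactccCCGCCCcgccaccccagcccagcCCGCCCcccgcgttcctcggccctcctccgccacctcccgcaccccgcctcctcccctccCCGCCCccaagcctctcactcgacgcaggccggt
Kcna4: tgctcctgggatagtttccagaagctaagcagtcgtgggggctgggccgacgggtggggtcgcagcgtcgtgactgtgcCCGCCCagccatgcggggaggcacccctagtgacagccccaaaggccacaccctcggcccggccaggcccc
Kcnip4: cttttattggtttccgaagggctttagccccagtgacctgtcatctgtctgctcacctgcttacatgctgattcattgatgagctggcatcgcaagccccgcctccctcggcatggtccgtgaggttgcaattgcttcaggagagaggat
Kcnj10: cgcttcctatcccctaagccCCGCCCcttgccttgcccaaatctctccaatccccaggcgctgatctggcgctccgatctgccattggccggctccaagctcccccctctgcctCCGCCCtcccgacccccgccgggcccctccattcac
Kcnj16: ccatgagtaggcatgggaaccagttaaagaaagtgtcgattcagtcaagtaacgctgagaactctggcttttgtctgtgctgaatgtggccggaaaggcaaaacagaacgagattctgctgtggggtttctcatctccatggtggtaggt
Kcnip3: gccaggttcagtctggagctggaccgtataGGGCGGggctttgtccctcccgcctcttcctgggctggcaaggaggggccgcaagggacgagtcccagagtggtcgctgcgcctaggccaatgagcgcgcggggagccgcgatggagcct
Kcnk13: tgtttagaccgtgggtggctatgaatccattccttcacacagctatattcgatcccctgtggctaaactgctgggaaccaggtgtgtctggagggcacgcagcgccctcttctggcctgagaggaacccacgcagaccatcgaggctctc
Kcnh7 held 3 copies of the motif, Kcnj10 held 2, Kcna4 and Kcnip3 held 1 each, and the windows of Kcnip4, Kcnj16 and Kcnk13 held none. The neuron-high and neuron-low members were therefore not separated by these letters.

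Potassium channel RNA was widespread but uneven across the classes. Of the 97 members, 42 reached 10 CPM in the neuron-like nuclei of Foxr2 p53LOF (28.6% of all genes did) and 45 in those of Foxr2 alone (29.9%). The numbers were 35 (27.7%) and 42 (31.1%) in OPC-like, 28 (30%) and 37 (31.3%) in astrocyte-like, 23 (30.2%) and 28 (31%) in immune-like and 16 (26.1%) and 24 (27.4%) in oligodendrocyte-like nuclei, and 25 (30.5%) in COP-like nuclei of Foxr2 p53LOF. Neuron-like nuclei thus held the most members above this level in both libraries, and oligodendrocyte-like nuclei the fewest. Summed over the members, Kcn RNA made up 13812 CPM of neuron-like nuclei in Foxr2 p53LOF against 17226 CPM in Foxr2 alone. The sum was 9817 and 8806 CPM in OPC-like, 6970 and 4318 CPM in astrocyte-like, 2818 and 4184 CPM in oligodendrocyte-like and 2105 and 1212 CPM in immune-like nuclei. COP-like nuclei were at 2324 CPM.

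**Figure D1:**
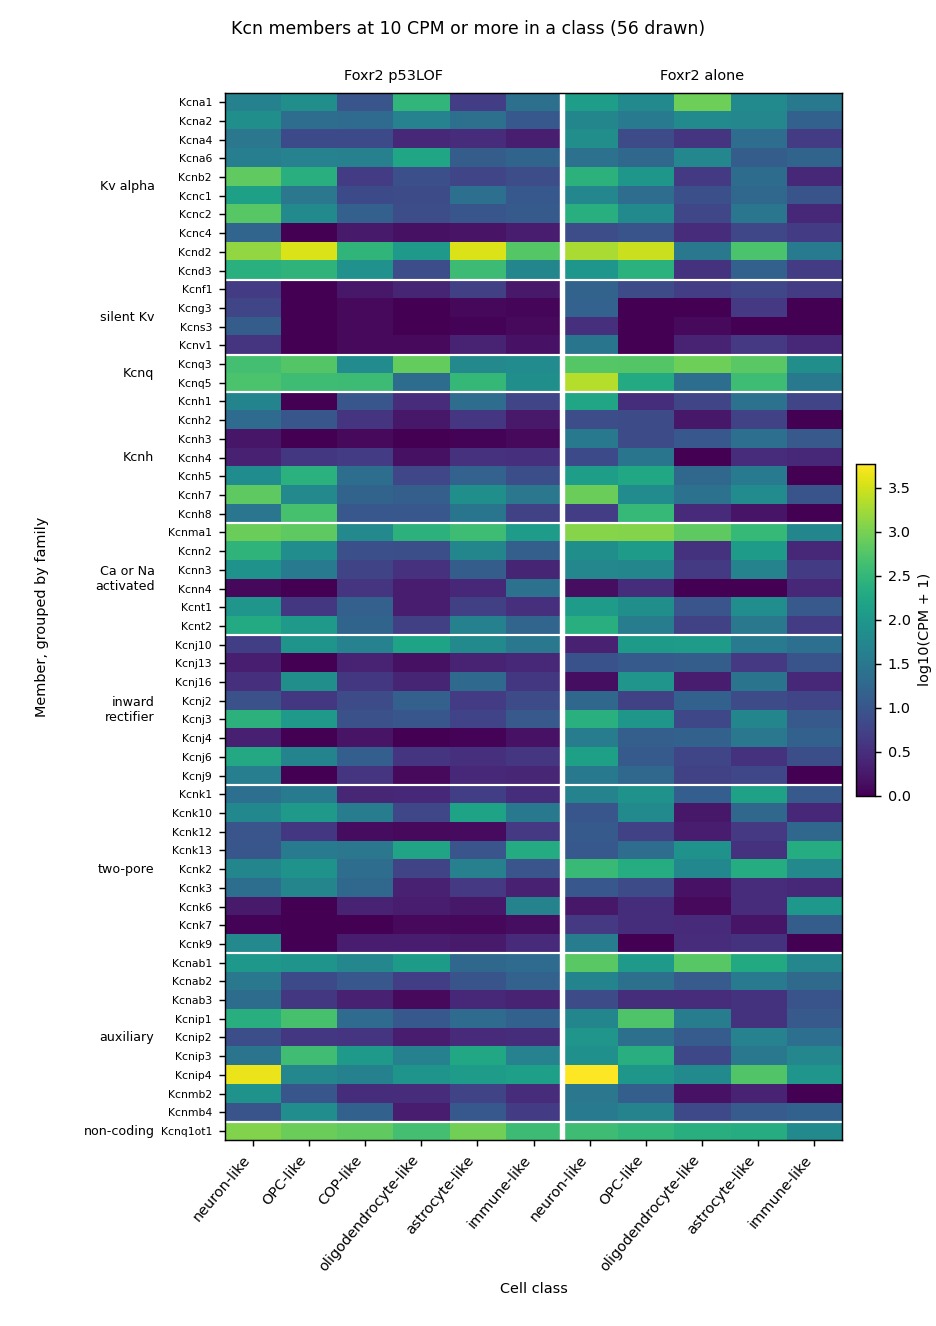
Level of the members that reached 10 CPM in a class, by class (columns) and library, as colour on a log10 scale of CPM plus 1, grouped by family, with a few members not drawn. Brighter is higher. The neuron-like columns are the brightest for most members drawn, while Kcnj10, Kcnk13, Kcnk6, Kcna1 and Kcnip3 have their highest level in a glial or immune column.

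In all, 60 members reached 10 CPM in at least 1 class of a library, beside 14283 of all 32285 genes. In both libraries 43 did so, beside 11519 of all genes. Among these 43, the class with the highest CPM was the same in both libraries for 32, beside 47.8% of all genes at that level in both. It was neuron-like for 20 (10.9% of all genes), OPC-like for 6 (5.96%, Kcnip1, Kcnip3, Kcnj16, Kcnh5, Kcnh8, Kcnmb4), oligodendrocyte-like for 4 (8%, Kcna1, Kcna6, Kcnj10, Kcnq3) and immune-like for 2 (18.9%, Kcnk6 and Kcnk13). None had its highest level in astrocyte-like nuclei in both libraries (3.92%). By CPM, the leading members of neuron-like nuclei were Kcnip4, Kcnd2, Kcnq1ot1, Kcnma1 and Kcnb2 in Foxr2 p53LOF and Kcnip4, Kcnq5, Kcnd2, Kcnma1 and Kcnh7 in Foxr2 alone. Nuclear RNA holds unspliced transcripts, so long genes collect more UMIs. Per kb of gene span, Kcnq1ot1, Kcna1, Kcna2 and Kcnj9 led in Foxr2 p53LOF, and Kcna1, Kcna4, Kcnip4, Kcnq1ot1 and Kcnq5 in Foxr2 alone. The short gene Kcna1 led oligodendrocyte-like nuclei per kb in both libraries, at 50.1 and 142 CPM per kb, and Kcnk6 led immune-like nuclei, at 4.52 and 9.45 CPM per kb.

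**Figure D2:**
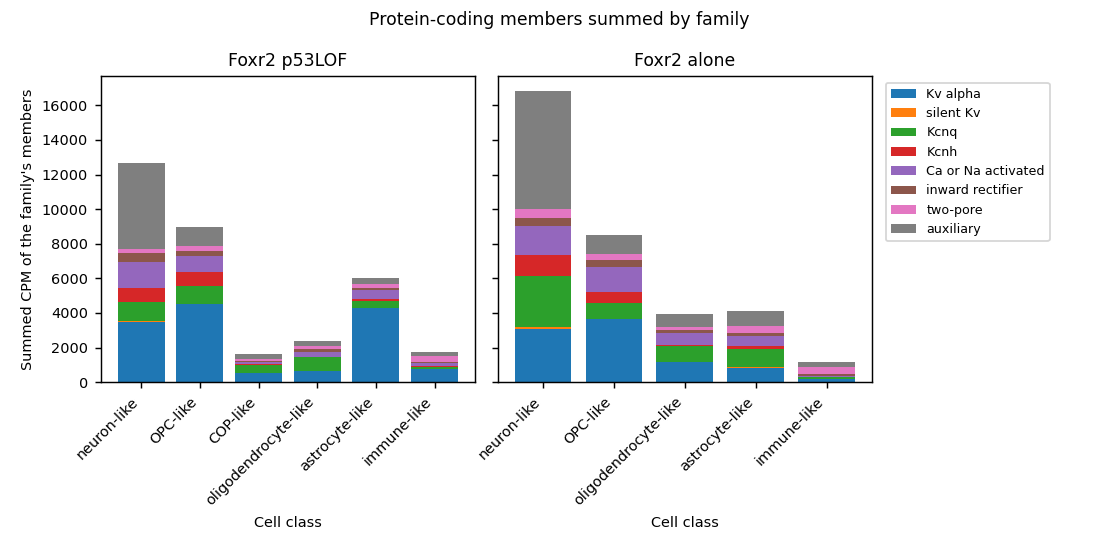
Summed CPM of the protein-coding members of each family (stacked bars) by class, in Foxr2 p53LOF (left) and Foxr2 alone (right). Auxiliary subunits lead the neuron-like sum (4991 and 6823 CPM), voltage-gated pore subunits lead OPC-like nuclei (4509 and 3627 CPM), and in astrocyte-like nuclei the pore subunits sum to 4264 CPM in Foxr2 p53LOF against 833 CPM in Foxr2 alone. Single genes hold most of these sums. Kcnip4 is at 4472 and 5845 CPM in neuron-like nuclei. Kcnd2 is at 3607 and 2875 CPM in OPC-like nuclei, and at 3725 CPM in astrocyte-like nuclei of Foxr2 p53LOF.

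The voltage-gated pore subunits differed in the class that held their highest level. Kcna1, a low-threshold channel of axons, was at 300 CPM (95% interval 283 to 317) in oligodendrocyte-like nuclei of Foxr2 p53LOF and 848 CPM (820 to 878) in those of Foxr2 alone. In neuron-like nuclei it was at 43.9 and 123 CPM, so both libraries held more of it in the glial class. Kcna6, of the same family, was also highest in oligodendrocyte-like nuclei, at 168 CPM in Foxr2 p53LOF against 54.9 CPM in Foxr2 alone. Kcna2, the axonal partner of Kcna1, was at 73.1 and 53.4 CPM in neuron-like and 46.1 and 59.4 CPM in oligodendrocyte-like nuclei. Kcna4, which gives a fast inactivating current, was at 30.5 and 72.3 CPM in neuron-like nuclei and at most 6.46 CPM in oligodendrocyte-like and OPC-like nuclei of both libraries. The delayed rectifier Kcnb2 was at 698 and 267 CPM in neuron-like nuclei. The channels of fast-spiking neurons, Kcnc1 and Kcnc2, were at 140 and 621 CPM in the neuron-like nuclei of Foxr2 p53LOF and at 54.1 and 228 CPM in Foxr2 alone, and both were lower in every glial class.

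Kcnd2, the pore of the dendritic A-type current, was high in OPC-like nuclei and differed between the libraries in astrocyte-like and immune-like nuclei. Its astrocyte-like level was 3725 CPM (3687 to 3762) in Foxr2 p53LOF against 495 CPM (461 to 532) in Foxr2 alone. OPC-like nuclei were at 3607 and 2875 CPM, while the COP-like nuclei of Foxr2 p53LOF were at 294 CPM (284 to 304). Levels were 1415 and 1955 CPM in neuron-like nuclei, 108 and 30.7 CPM in oligodendrocyte-like nuclei and 590 and 34.5 CPM in immune-like nuclei. The Foxr2 p53LOF astrocyte-like level was thus within the counting interval of the OPC-like level of that library (3405 to 3818 CPM). Kcnd3, which forms the same current, was at 387 CPM in astrocyte-like nuclei of Foxr2 p53LOF and 13.7 CPM in those of Foxr2 alone, and at 278 and 256 CPM in OPC-like nuclei. Kcnd1 stayed below 10 CPM, with a highest level of 5.87 and 8.20 CPM. Of the other pore subunits, Kcna3, known from lymphocytes and microglia, reached 1.45 CPM in Foxr2 p53LOF against 1.27 CPM in Foxr2 alone.

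The auxiliary subunits were led by the Kcnip genes, calcium-binding partners of the Kcnd pores. Kcnip4 was at 4472 CPM (4446 to 4498) in neuron-like nuclei of Foxr2 p53LOF and 5845 CPM (5818 to 5871) in Foxr2 alone, and at no more than 548 CPM in any other class. It spans chr5:48389502-49524907 on the minus strand, and genes on both strands overlap it. Kcnip1 was highest in OPC-like nuclei, at 460 and 528 CPM, beside 237 and 52.4 CPM in neuron-like nuclei. Kcnip3, which is also known as a calcium-dependent repressor of transcription, was at 402 and 228 CPM in OPC-like nuclei. Its neuron-like level was 27.1 CPM in Foxr2 p53LOF against 77.5 CPM in Foxr2 alone, and its astrocyte-like level 179 and 30.7 CPM. Kcnip2 was at 7.09 CPM in the neuron-like nuclei of Foxr2 p53LOF and at 90.8 CPM in those of Foxr2 alone. Kcnab1, the beta subunit of Kcna channels, was at 101 and 638 CPM in neuron-like and 112 and 623 CPM in oligodendrocyte-like nuclei, so the 2 classes were close to each other within each library. Kcnab2 was at 31.6 and 48.5 CPM in neuron-like nuclei. Kcnmb4, the neuronal beta subunit of the Kcnma1 channel, was highest in OPC-like nuclei (69.6 and 47.4 CPM), while Kcnmb2 was highest in neuron-like nuclei (84.0 and 30.4 CPM). Kcnmb1, known from smooth muscle, had 3 UMIs in each library, and Kcne4 had 7 and 5.

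Kcnq subunits form the M-current, a slow brake on firing. Kcnq5 was at 497 CPM in the neuron-like nuclei of Foxr2 p53LOF against 2209 CPM in Foxr2 alone. Kcnq3 was highest in oligodendrocyte-like nuclei, at 746 and 864 CPM, beside 436 and 584 CPM in neuron-like nuclei. Kcnq1, the cardiac and epithelial member, reached 2.41 and 6.35 CPM. Among the Kcnh genes, Kcnh7, of the ERG type, was at 681 and 843 CPM in neuron-like nuclei and at 73.5 CPM or less elsewhere. Kcnh1 was at 49.1 and 165 CPM in neuron-like nuclei, and Kcnh2 at 19.7 and 6.81 CPM. Kcnh5 and Kcnh8 were OPC-like members, at 257 and 183 CPM and at 469 and 336 CPM in that class.

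Among channels gated by calcium or sodium, Kcnma1, the large-conductance channel, was at 827 CPM in the neuron-like nuclei of Foxr2 p53LOF and 1198 CPM in Foxr2 alone. It was close to that level in OPC-like nuclei (678 and 1169 CPM) and at 260 and 682 CPM in oligodendrocyte-like nuclei. The small-conductance channels Kcnn2 and Kcnn3, which follow bursts of firing with a pause, were at 282 and 81.0 CPM in the neuron-like nuclei of Foxr2 p53LOF and at 75.2 and 54.1 CPM in Foxr2 alone. Kcnn1 reached 6.05 and 3.92 CPM. Kcnn4, the member of blood and immune cells, was at 24.8 CPM (21.4 to 28.6) in immune-like nuclei of Foxr2 p53LOF, and 1 UMI gave 1.73 CPM (0.0437 to 9.62) in those of Foxr2 alone. The sodium-gated Kcnt1 and Kcnt2 were at 91.5 and 198 CPM in the neuron-like nuclei of Foxr2 p53LOF and at 119 and 239 CPM in Foxr2 alone.

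Among the inward rectifiers, Kcnj10, the main potassium-buffering channel of astrocytes and oligodendrocytes, was at 152 CPM (141 to 165) in oligodendrocyte-like nuclei of Foxr2 p53LOF and 115 CPM (105 to 126) in Foxr2 alone. Its level was 87.8 and 112 CPM in OPC-like, 62.8 and 34.0 CPM in astrocyte-like, and 4.05 and 1.21 CPM in neuron-like nuclei. Immune-like nuclei were at 30.8 and 22.4 CPM. In Foxr2 alone the astrocyte-like share of nuclei with Kcnj10, given below, lay within the interval of the immune-like share. Ratios below that use this astrocyte-like level carry the same limit. Kcnj16, which joins Kcnj10 in mixed channels, was at 72.6 and 92.6 CPM in OPC-like and 18.6 and 26.8 CPM in astrocyte-like nuclei, but at 1.47 and 1.0 CPM in oligodendrocyte-like nuclei. Kcnj16 was thus lower in oligodendrocyte-like than in OPC-like nuclei in both libraries, while Kcnj10 was not. The G protein-gated rectifiers Kcnj3, Kcnj6 and Kcnj9 were at 261, 188 and 39.2 CPM in the neuron-like nuclei of Foxr2 p53LOF and at 242, 136 and 32.7 CPM in those of Foxr2 alone, a difference of under 2-fold for each. Within thalamic or midbrain glutamatergic-like neurons, a subclass of both libraries, Kcnj6 was at 118 against 53.2 CPM (log2 ratio 1.14) and Kcnj9 at 42.6 against 16.1 CPM (1.40), both higher in Foxr2 p53LOF. Kcnj2 was at 7.52 and 16.8 CPM in neuron-like nuclei. The ATP-sensitive pores Kcnj8 and Kcnj11 were low in the named classes, where Kcnj8 reached 0.394 and 0 CPM and Kcnj11 3.5 and 7.8 CPM. Over all nuclei Kcnj8 had 16 and 7 UMIs. The 7 UMIs of Foxr2 alone all lay in nuclei without a class name, so its level there is not described by the classes.

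Two-pore channels carry the background current. Kcnk13 was at 206 CPM (196 to 217) in immune-like nuclei of Foxr2 p53LOF and 214 CPM (178 to 255) in Foxr2 alone, so the intervals overlapped. It is a channel of microglia, and it was also at 159 and 81.5 CPM in oligodendrocyte-like nuclei, beside 9.01 and 10.1 CPM in neuron-like nuclei. Kcnk6 was at 47.8 and 100 CPM in immune-like nuclei and at 2.15 CPM or less in every other class. Kcnk9, an acid-sensitive channel, was at 57.8 and 38.6 CPM in neuron-like nuclei and at 2.62 CPM or less elsewhere. Kcnk2, which responds to stretch and lipids, was at 53.3 CPM in the neuron-like nuclei of Foxr2 p53LOF and 356 CPM in Foxr2 alone. Its close relative Kcnk10 went the other way, at 56.3 and 9.35 CPM, and was at 154 and 17 CPM in astrocyte-like nuclei. Kcnk1 was at 4.06 CPM in astrocyte-like nuclei of Foxr2 p53LOF and 141 CPM in those of Foxr2 alone.

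Kcnq1ot1, the long non-coding RNA read from the strand opposite Kcnq1 at chr7:143203458-143296549, was higher in Foxr2 p53LOF in every class compared. It was at 1120 and 396 CPM in neuron-like, 933 and 212 CPM in astrocyte-like, 823 and 308 CPM in OPC-like, 433 and 240 CPM in oligodendrocyte-like and 382 and 60.4 CPM in immune-like nuclei. In oligodendrocyte-like nuclei the ratio stayed under 2-fold. While 37 members never reached 10 CPM, beside 18002 of all 32285 genes, 94 of all 97 had UMIs in both libraries. None was without UMIs in both. The counts by UMIs have no share of all genes beside them here. Kcnmb4os1 had none in Foxr2 p53LOF, and Kcna7 and Kcnj15 had none in Foxr2 alone. Kcnk16 and Kcne1 had 1 to 3 UMIs in all. Some members overlap genes on the other strand: Kcnip1 overlaps Kcnmb1, Kcnd3 overlaps Kcnd3os, and Kcnmb4 overlaps Kcnmb4os1 and Kcnmb4os2.

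Neuron-like nuclei were then compared with the glia-like nuclei (all oligodendrocyte-like, precursor-like and astrocyte-like nuclei) of the same library. In Foxr2 p53LOF, 45 members reached 10 CPM on one side. Of these, 31 were higher in neuron-like nuclei, where 17.1% of all genes were, and 3 were lower, where 27.7% were. In Foxr2 alone, 48 members were compared, with 32 higher (20.1%) and 6 lower (20%). The glia-like pool is weighted by UMIs, and OPC-like nuclei gave 330440 of its 26361462 UMIs in Foxr2 p53LOF. Some members called higher had their highest level in a single glial class. In Foxr2 p53LOF these included Kcnq3 and Kcnab1 (oligodendrocyte-like) and Kcnip1, Kcnk1, Kcnk3 and Kcnh5 (OPC-like). In Foxr2 alone they included Kcnd2, Kcnd3, Kcnh5, Kcnip3 and Kcnmb4 (OPC-like). The median log2 ratio over the members was 2.55 in Foxr2 p53LOF and 1.64 in Foxr2 alone, beside -0.34 and -0.08 over all genes. Scaling by the median of ratios moves every log2 ratio of this comparison by 0.32 in Foxr2 p53LOF and 0.12 in Foxr2 alone, small beside the members' medians. Between single classes the move was -0.30 to 0.60, and between the libraries 0.17 in astrocyte-like, 0.25 in immune-like and 0.15 in GABAergic-like nuclei and under 0.1 elsewhere.

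Of the 39 members compared in both libraries, 19 were higher in neuron-like nuclei in both, beside 11.2% of all genes compared in both. They include the G protein-gated Kcnj3, Kcnj6 and Kcnj9, the sodium-gated Kcnt1 and Kcnt2, and Kcnb2, Kcnc1, Kcnc2, Kcnh7 and Kcnip4. Kcnh5 is among them too, though OPC-like nuclei held its highest level in both libraries. The largest log2 ratios were those of Kcnb2 (6.51), Kcns3 (6.32), Kcnk9 (5.99), Kcnip4 (5.82), Kcnc2 (5.78) and Kcnj3 (5.03) in Foxr2 p53LOF. In Foxr2 alone they were those of Kcnip4 (4.93), Kcnj6 (4.80), Kcnh7 (4.47), Kcnk9 (4.25), Kcnmb2 (4.17) and Kcnb2 (4.14). Lower in both libraries (12.1% of all genes) were Kcnj10, at -4.10 (95% counting interval -4.40 to -3.81) in Foxr2 p53LOF and -6.28 (-6.78 to -5.82) in Foxr2 alone, and Kcnk13, at -2.21 (-2.42 to -2.0) and -2.49 (-2.71 to -2.26). Kcnip3 was lower in Foxr2 p53LOF (-2.26) and higher in Foxr2 alone (1.39), the only member called in opposite directions (1.93% of all genes). In Foxr2 alone the lower members also held Kcnj16 (-5.35), Kcnh8 (-2.86) and Kcna1 (-2.25).

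**Figure D3:**
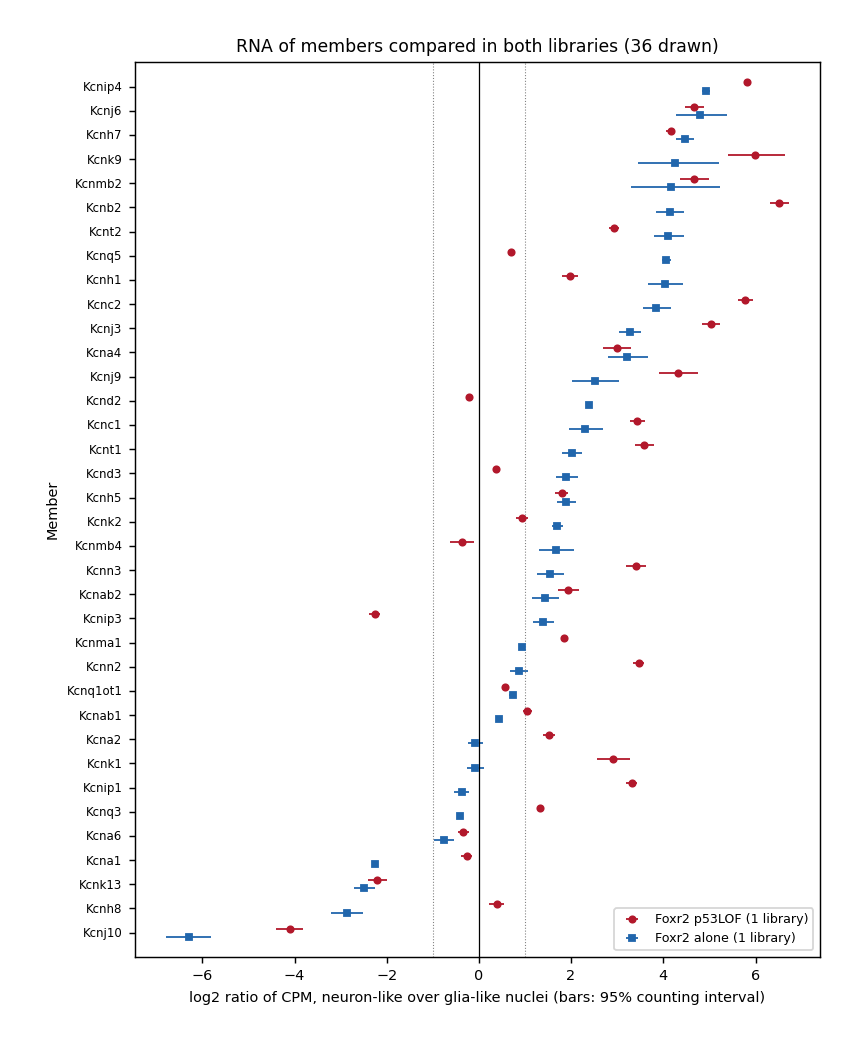
Log2 ratio of CPM in neuron-like over glia-like nuclei for members at 10 CPM or more on one side in both libraries, with 95% counting intervals, in Foxr2 p53LOF (circles) and Foxr2 alone (squares), with a few members not drawn. Most points lie right of 0, Kcnj10 and Kcnk13 lie left of it in both libraries, and Kcnip3 lies on opposite sides.

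By family, the calcium or sodium activated members were higher in neuron-like nuclei for 5 of 5 compared in Foxr2 p53LOF and 3 of 5 in Foxr2 alone. Of the auxiliary subunits, 6 of 8 were higher in each library, and of the voltage-gated pores 7 of 12 and 7 of 11. The inward rectifiers had 3 higher and 1 lower of 4 in Foxr2 p53LOF and 4 higher and 2 lower of 7 in Foxr2 alone. The two-pore channels had 3 higher and 1 lower in each, of 6 and 5. Over all genes, the shares for this comparison were 17.1% and 20.1% higher and 27.7% and 20% lower.

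Neuron-like nuclei were also set against single classes. Over oligodendrocyte-like nuclei, 36 of 45 members were higher in neuron-like nuclei of Foxr2 p53LOF (26.4%) and 4 lower (19.4%), and 34 of 47 higher (26.8%) and 5 lower (18.6%) in Foxr2 alone. Kcnj10, Kcnk13, Kcna1 and Kcna6 were lower in both, with log2 ratios of -5.23, -4.14, -2.77 and -2.09 in Foxr2 p53LOF. Over astrocyte-like nuclei, 33 of 45 were higher (18.4%) and 6 lower (24.9%) in Foxr2 p53LOF, and 33 of 48 higher (17.2%) and 3 lower (21.7%) in Foxr2 alone. Kcnj10 (-3.95 and -4.81) and Kcnj16 (-3.10 and -6.21) were lower in both libraries, while Kcnip3 (-2.72), Kcnk10 (-1.45) and Kcnd2 (-1.40) were lower in Foxr2 p53LOF and Kcnk1 (-1.55) in Foxr2 alone. Over immune-like nuclei, 39 of 46 were higher (22.4%) and 4 lower (30.9%) in Foxr2 p53LOF, and 41 of 48 higher (23.8%) and 4 lower (30.8%) in Foxr2 alone. Kcnk6 (-5.79 and -7.05), Kcnk13 (-4.52 and -4.41) and Kcnj10 (-2.92 and -4.21) were lower in both, Kcnn4 (-6.98) in Foxr2 p53LOF and Kcnk7 (-1.89, -2.98 to -0.54) in Foxr2 alone.

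Within glia, 20 of 31 members were higher in astrocyte-like than in oligodendrocyte-like nuclei of Foxr2 p53LOF (28.3%) and 7 lower (12.9%), and 26 of 41 higher (25.7%) and 10 lower (12.2%) in Foxr2 alone. Kcna1 was lower in astrocyte-like nuclei by log2 ratios of -6.31 and -3.83, Kcnk13 by -4.19 and -4.96, Kcna6 by -3.83 and -2.22 and Kcnj10 by -1.28 and -1.76. Kcnj16 went the other way, at 3.66 and 4.72, as did Kcnd2 (5.11 and 4.01) and Kcnk10 (4.83 and 4.48).

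The neuron-like nuclei of the libraries were of different kinds. In Foxr2 p53LOF, clusters named from markers were GABAergic-like (603 nuclei), thalamic or midbrain glutamatergic-like (611) and dopaminergic-like (141), and the rest had no subclass name. Foxr2 alone held striatal projection-like (2346), cortical glutamatergic-like (1305), interneuron-like (171), GABAergic-like (134) and thalamic or midbrain glutamatergic-like (97) nuclei. Members varied widely among them. The dopaminergic-like nuclei were at 1062 CPM for Kcnd3, 913 CPM for Kcnj6, 366 CPM for Kcnn3 and 80.8 CPM for Kcns3, each the highest of all subclasses. Kcnj6 was at 4.35 CPM in striatal projection-like nuclei, the lowest among the named neuron subclasses. Striatal projection-like nuclei led in Kcnq5 (3263 CPM), Kcnk2 (615 CPM) and Kcnip2 (162 CPM), and were at 1007 CPM for Kcnab1. Cortical glutamatergic-like nuclei led in Kcnip4, at 8032 CPM. Interneuron-like nuclei led in Kcnc2 (2061 CPM) and Kcnmb2 (454 CPM), while Kcnmb2 was at 0.705 and 0.870 CPM in cortical glutamatergic-like and striatal projection-like nuclei. Each of these levels comes from 1 library.

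In neuron-like nuclei, Foxr2 p53LOF was compared with Foxr2 alone. Of 52 members compared, 15 were higher in Foxr2 p53LOF (13.4% of all genes were) and 16 were lower (18.9%), with a median log2 ratio of -0.27 beside -0.05 over all genes. Lowest in Foxr2 p53LOF were Kcnh3, at 0.669 against 32.4 CPM (log2 ratio -5.60, interval -6.38 to -4.91), and Kcnj4, at 1.14 against 38.4 CPM (-5.07, -5.66 to -4.54). Kcnip2 (-3.68), the silent subunit Kcnv1 (-3.40), Kcnk2 (-2.74) and Kcnab1 (-2.65) followed. Highest were Kcnh8 (2.95), Kcnk10 (2.59), Kcns3 (2.36), Kcnip1 (2.18), Kcnn2 (1.91) and Kcnab3 (1.73). Kcnh3 overlaps Mcrs1 on the other strand. In neuron-like nuclei, the 8 astrocyte markers summed to 210 CPM in Foxr2 p53LOF (5 of 8 at 10 CPM or more) and 631 CPM in Foxr2 alone (2 of 8). The 8 OPC markers summed to 1311 CPM (7 of 8) and 848 CPM (6 of 8). The part of these markers in the ratios was not tested.

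Some of these ratios differed within the neuron subclasses that both libraries held. Within GABAergic-like nuclei, 48 members were compared, 8 were higher in Foxr2 p53LOF (10.6%) and 14 lower (18.3%). Kcnab1 stayed lower, at 117 CPM in Foxr2 p53LOF against 1079 CPM in Foxr2 alone (-3.20, -3.34 to -3.06), and Kcnq5 was at 410 and 1129 CPM (-1.46). Kcnk10 stayed higher, at 54.8 and 5.37 CPM (3.35), and so did Kcnc2 (1.41), Kcnb2 (1.04) and Kcnq1ot1 (1.37). Kcnip1 turned around, at 305 and 711 CPM (-1.22, -1.35 to -1.09), and so did Kcns3, at 6.11 and 26.9 CPM (-2.14). Kcnn2 was at 329 and 360 CPM (-0.13), and Kcnv1 at 2.97 and 1.07 CPM (1.47), on 19 UMIs and 1 UMI. Kcnk2 was within 2-fold there, at 51.2 and 66.6 CPM (-0.38), and Kcnh3 (0 and 5.37 CPM) and Kcnj4 (1.10 and 9.67 CPM) did not reach 10 CPM. Within thalamic or midbrain glutamatergic-like nuclei, 50 members were compared, 12 were higher (20.3%) and 19 lower (15.9%). Kcnip1 was there at 258 CPM in Foxr2 p53LOF with 0 UMIs in Foxr2 alone, a log2 ratio of at least 6.5 against 3 counts. Kcnk2 (-2.38), Kcnq5 (-1.27) and Kcnab1 (-1.05) were lower and Kcnk10 (2.50), Kcnn2 (3.76) and Kcnq1ot1 (1.55) higher. Kcnip2 was at 7.92 and 4.75 CPM there (0.74). Kcnc2 and Kcnb2, higher within GABAergic-like nuclei, were within 2-fold there and turned in sign. Kcnh3, at 0.155 and 29.4 CPM (-7.57), and Kcnj4, at 0.155 and 67.4 CPM (-8.76), were lower there too, on 1 UMI each in Foxr2 p53LOF. Called lower in both subclasses that the libraries have in common were Kcnab1, Kcnh1, Kcnip3, Kcnk12 and Kcnq5. Called higher in both were Kcnk10, Kcnn3 and Kcnq1ot1. The share of all genes called alike in both subclasses is not given here, so the overlap is not read as a result about the members. Whether a subclass holds the same kinds of neurons in the 2 libraries was not tested.

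**Figure D4:**
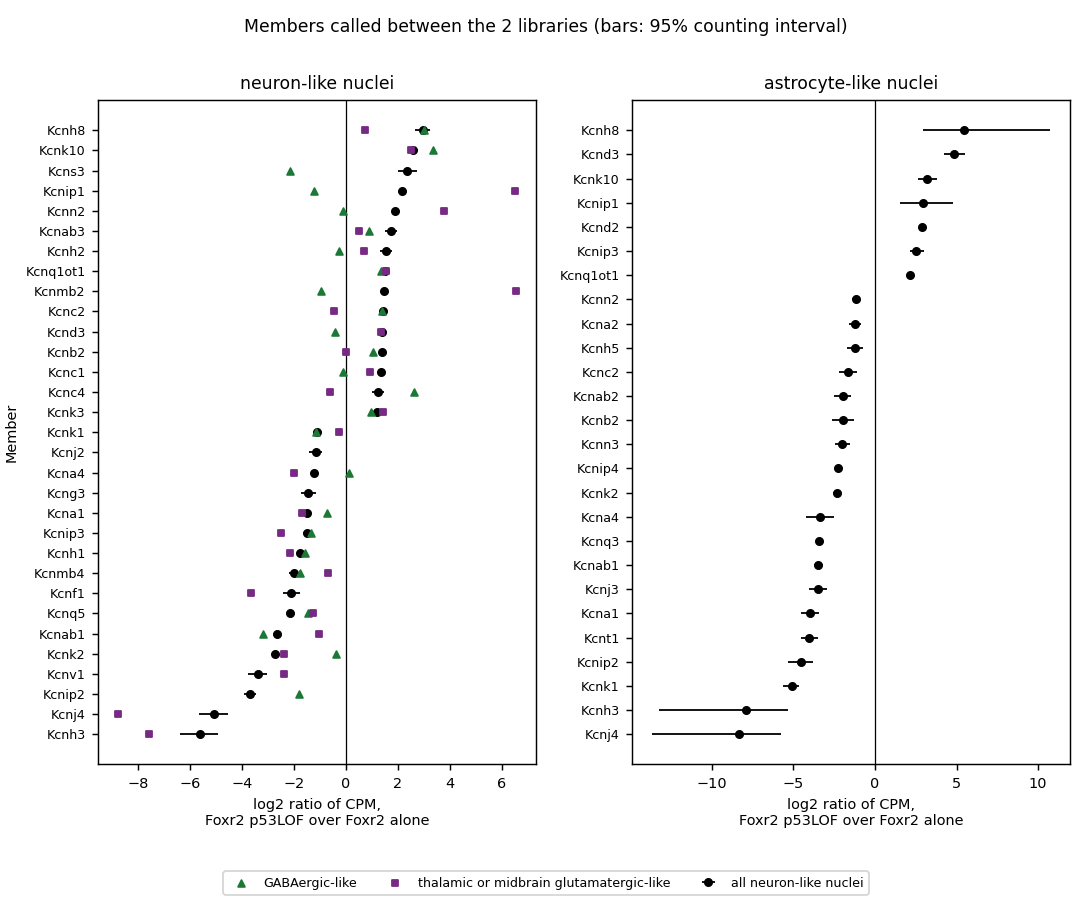
Log2 ratio of CPM in Foxr2 p53LOF over Foxr2 alone for members called in neuron-like (left) and astrocyte-like nuclei (right), with 95% counting intervals as bars and a few members not drawn. Triangles and squares give the same ratio within GABAergic-like and thalamic or midbrain glutamatergic-like nuclei, where members with 0 UMIs in Foxr2 alone are drawn at their lower bound, and Kcnip1, Kcns3 and Kcnmb2 show the widest disagreement.

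In astrocyte-like nuclei, 40 members were compared, with 9 higher in Foxr2 p53LOF (23.5%) and 20 lower (28.6%), and a median log2 ratio of -0.92 beside 0.01 over all genes. The share of members higher, 22.5%, was thus close to that of all genes. Vector sequences had ATAC counts in 340 of these nuclei (30.1%) in Foxr2 p53LOF and in 0 in Foxr2 alone, where no other class held any. Their part in the ratios was not tested. The higher members were led by Kcnh8 (5.43, 2.94 to 10.74), Kcnd3 (4.82, 4.2 to 5.51), Kcnk10 (3.17), Kcnip1 (2.92), Kcnd2 (2.91, 2.81 to 3.02) and Kcnip3 (2.54). Kcnh8, Kcnip1 and Kcnip3 had their highest level in OPC-like nuclei in both libraries, and OPC markers were at the levels given above in the same nuclei. The part of those nuclei in these ratios was not tested. The lower members were led by Kcnj4 (-8.31), Kcnh3 (-7.89), Kcnk1 (-5.11), Kcnip2 (-4.54), Kcnt1 (-4.01) and Kcna1 (-3.98). The 8 neuron markers summed to 561 CPM in astrocyte-like nuclei of Foxr2 p53LOF (7 of 8 at 10 CPM or more) and 1657 CPM in those of Foxr2 alone (8 of 8), with none at 0. Their part in these ratios was not tested.

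Neuron markers moved with the libraries in the other classes too, at 362 against 844 CPM in oligodendrocyte-like (6 and 8 of 8 markers at 10 CPM or more) and 215 against 671 CPM in immune-like nuclei (5 and 8 of 8), with none at 0, and their part was not tested. The 8 OPC markers moved the other way, at 226 against 42.7 CPM in oligodendrocyte-like (6 and 1 of 8 at 10 CPM or more) and 822 against 104 CPM in immune-like nuclei (7 and 4 of 8), with none at 0, and their part was not tested. In oligodendrocyte-like nuclei, 25 members were compared, with 3 higher in Foxr2 p53LOF (13.2%) and 13 lower (20.6%), and a median of -1.31 beside -0.06 over all genes. Kcnip3 (3.01, 2.36 to 3.72), Kcnd2 (1.81) and Kcna6 (1.62) were higher. Lower were Kcnj13 (-4.60, -7.69 to -2.67), Kcnj4, with 0 UMIs in Foxr2 p53LOF and 54 in Foxr2 alone (-4.22 or lower against 3 counts), Kcnip2 (-3.54), Kcnk2 (-3.51) and Kcnk1 (-2.83). Kcna1 was also lower (-1.50, -1.60 to -1.41), and so was Kcnma1 (-1.39). Kcnj13 overlaps Gigyf2 on the other strand. The oligodendrocyte members Kcnj10 and Kcnq3 were within 2-fold.

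In immune-like nuclei, 35 members were compared, with 11 higher in Foxr2 p53LOF (18%) and 12 lower (22.3%), and a median of -0.16 beside -0.11 over all genes. Kcnk10 (4.24), Kcnd2 (4.09, 3.47 to 4.81), Kcnd3 (3.91), Kcnn4 (3.85, 1.35 to 9.16), Kcnn2 (2.91) and Kcnq1ot1 (2.66) had the largest ratios among the higher members. Kcnk10, Kcnn4 and Kcnn2 rest on 1 UMI each in Foxr2 alone. With at least 1000 genes and 1000 fragments per nucleus, 4 members were higher, and Kcnk10 (-0.27) and Kcnn2 (-0.41) turned. With doublets kept, 17 were higher. GFP, a vector transcript, was at 242 CPM in immune-like nuclei of Foxr2 p53LOF and 22.4 CPM in those of Foxr2 alone. Its bearing on these ratios was not tested. Lower were Kcnh3 (-5.30), Kcnk7 (-4.94), Kcnj4 (-4.71), Kcnip2 (-3.42), Kcnk2 (-2.74) and Kcnk12 (-2.45), each with 34 UMIs or fewer in Foxr2 alone. The 2 immune members differed: Kcnk6 was lower (-1.07, -1.47 to -0.64) and Kcnk13 was within 2-fold. In the small OPC-like class, 43 members were compared, with 6 higher (10.6%) and 7 lower (22.7%), and a median of -0.17 beside -0.21. The 8 neuron markers summed to 530 CPM in the OPC-like nuclei of Foxr2 p53LOF (7 of 8 at 10 CPM or more, Rbfox3 at 0) and 1051 CPM in those of Foxr2 alone (8 of 8), and their part was not tested. Kcnk3 (2.99), Kcnj6 (2.17), Kcnt2 (1.53), Kcnq1ot1 (1.42), Kcna6 (1.40) and Kcnb2 (1.25) were higher. Lower with an interval below 0 were Kcnt1 (-4.60), Kcnh4 (-3.21), Kcnip2 (-2.97), Kcnk2 (-1.32) and Kcnk1 (-1.17), the first 3 of them on 1 UMI in Foxr2 p53LOF.

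The partners of the channels were followed as a list of 27 genes that are no members. In neuron-like over glia-like nuclei of Foxr2 p53LOF, 14 of 22 compared were higher (17.1% of all genes) and 5 lower (27.7%). In Foxr2 alone, 10 of 19 were higher (20.1%) and 6 lower (20%). Dpp10 and Dpp6, which join the Kcnd pores, were at 1610 and 1417 CPM in the neuron-like nuclei of Foxr2 p53LOF and at 2631 and 807 CPM in Foxr2 alone. Cntnap2, which holds Kcna channels beside the node of Ranvier, was at 4024 and 2964 CPM in the same nuclei. Its partner Cntn2 was at 641 and 360 CPM in oligodendrocyte-like nuclei, the class with the most Kcna1. Between the libraries, 4 of 21 partners were higher in Foxr2 p53LOF (13.4% of all genes) and 1 lower (18.9%) in neuron-like nuclei. In astrocyte-like nuclei, 2 of 17 were higher (23.5%) and 11 lower (28.6%).

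Open chromatin was compared at the promoters, taken from 1000 bases before to 200 bases after every annotated transcript start of a gene. Members held from 1 start (Kcnj10) to 12 (Kcnab2), and the peaks at all starts of a gene were pooled. A gene with more starts can therefore meet a peak more easily. A peak called in the library's own list overlapped the promoter of 80 members in Foxr2 p53LOF (56.5% of all genes), 79 in Foxr2 alone replicate 1 (55.2%) and 72 in Foxr2 alone replicate 2 (53.7%). In all 3 lists a peak was present for 70 members, which are set beside all genes by RNA level below. Members with none in any list were Kcne1, Kcne2, Kcne4, Kcng2, Kcnj1, Kcnj14, Kcnj15, Kcnk16, Kcnk18, Kcnmb1, Kcnmb3, Kcnrg and Kcnv2, 13 in all. A further 7 had a peak in 1 list and 7 in 2. The counts for 1 and 2 lists have no share of all genes beside them here. Members without a peak are set beside all genes below where a RefSeq promoter was at hand. Of the 60 members at 10 CPM or more in a class, 54 (90.0%) had a peak in all 3 lists, beside 86.7% of all genes at that level. Of the 37 members below it, 16 (43.2%) had one, beside 20.3% of all genes below it.

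Fragments in promoter peaks were scaled to all fragments in peaks of a class, as for CPM, and are given as FPM. Between neuron-like and glia-like nuclei, 80 members were compared in Foxr2 p53LOF, with 31 higher (12.2%) and 6 lower (10.1%), and 79 in Foxr2 alone, with 53 higher (21.5%) and 4 lower (15.6%). The median log2 ratio was 0.84 and 1.56, beside 0.11 and -0.31 over all genes. The Kcnj10 promoter shown above was at 6.86 FPM in neuron-like nuclei of Foxr2 p53LOF and 43.5 in its glia-like nuclei (log2 ratio -2.67, -3.05 to -2.30). In Foxr2 alone it was at 4.64 and 68.6 (-3.89, -4.16 to -3.63). Kcnj16 was at -1.51 and -4.32. The Kcnh7 promoter went the other way, at 3.21 (2.73 to 3.71) in Foxr2 p53LOF and 3.51 (2.84 to 4.28) in Foxr2 alone, as did Kcnip4 (2.67 and 3.38) and Kcna4 (1.42 and 4.22). For Kcnk13, low in neuron-like RNA, the promoter was within 2-fold in both libraries, at -0.15 and -0.72. Kcnip3, whose RNA changed sides, had a promoter ratio of -0.53 (-0.71 to -0.35) in Foxr2 p53LOF and 0.51 (0.33 to 0.70) in Foxr2 alone, the same signs as its RNA and under 2-fold.

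**Figure D5:**
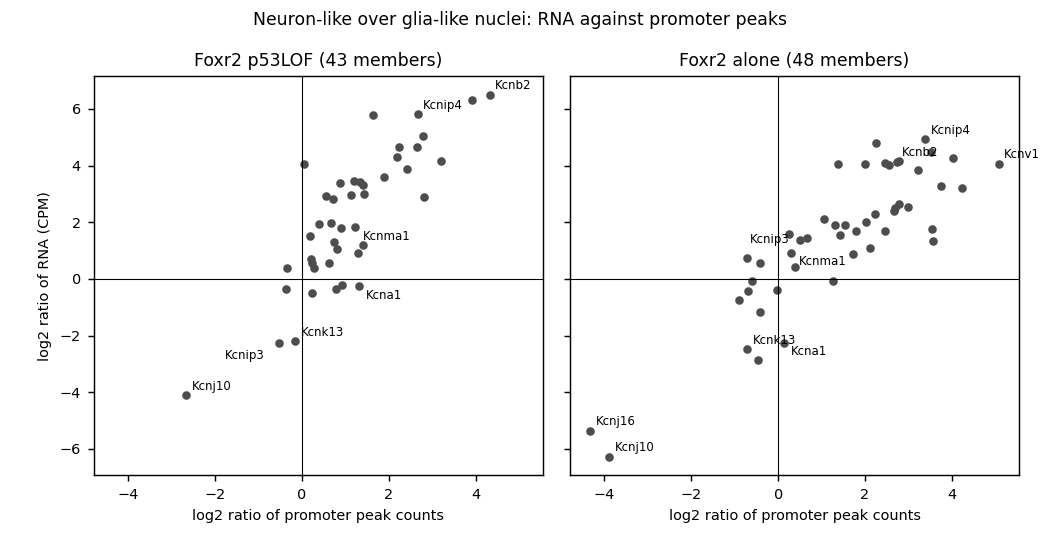
Log2 ratio of neuron-like over glia-like nuclei in RNA (vertical axis) against the same ratio in promoter fragments (horizontal axis), 1 point per member, for Foxr2 p53LOF and Foxr2 alone. Members with higher RNA in neuron-like nuclei lie mostly to the right of 0 in promoter fragments, and Kcnj10 lies at the lower left in both.

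Over the members measured in both ways, Spearman's rho between the RNA and the promoter ratio was 0.773 and Pearson's r 0.831 in Foxr2 p53LOF (43 members), and 0.816 and 0.863 in Foxr2 alone (48 members). Over all genes measured in both ways they were 0.677 and 0.797 in Foxr2 p53LOF (10668 genes) and 0.604 and 0.715 in Foxr2 alone (10443 genes). These describe genes within 1 library, which are not independent, and both ratios share the same nuclei and depth. Of the members higher in neuron-like RNA, 19 of 29 in Foxr2 p53LOF and 29 of 32 in Foxr2 alone were also higher in promoter fragments, beside 50.5% and 51.5% of all genes higher in RNA. None of these members was 2-fold lower in promoter fragments, beside 0.467% and 1.51% of those genes. Of the members lower in neuron-like RNA, 1 of 3 and 2 of 6 were also lower in promoter fragments, beside 23.3% and 51.5% of all such genes. Between the libraries, the Kcnd2 promoter in astrocyte-like nuclei was at 27.4 FPM (173 fragments) in Foxr2 p53LOF and 6.83 (12.5 fragments) in Foxr2 alone. Kcnd3 was at 25.5 and 6.83 and Kcnk10 at 51.9 and 18.3, in the order of their RNA. The Kcnk6 promoter was at 26.2 and 43.7 FPM in immune-like nuclei and 6.5 and 4.18 in neuron-like nuclei. The Kcna1 promoter, in contrast with its RNA, was alike in oligodendrocyte-like (60.1 and 72.4) and neuron-like nuclei (51.3 and 68.2).

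RefSeq promoters of GRCm38.p6, from 250 bases before to 50 after a start, were at hand for 71 of the 97 members, 96 promoters in all. GGGCGG, searched on both strands, was in 46 (47.9%) beside 35.7% of all promoters. TATAAA was in 5 (5.21%) beside 13.6%. GAGGAAGT, an ETS-type site, was in none beside 3.20%, and the palindrome of NFI factors, TGGC and GCCA set 5 bases apart, in 1 (1.04%) beside 0.807%. The median GC content was 58.0% beside 52.7%. A ratio of observed to expected CpG of at least 0.6 was found in 27 promoters (28.1%) beside 35.8%. By gene, 25 of 26 members with at least 1 such promoter had a peak in all 3 lists (96.2%), beside 92.4% of all genes with one. Of the 45 members without one, 27 did (60%), beside 28.8% of all genes without one. No list held a peak for 9 of these 45 members, beside 6042 of 10802 genes. The same held for 0 of the 26 members with one, beside 333 of 9440 genes. A match to letters is a description, not a bound site.

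For 4 members the share of nuclei with a UMI was computed after thinning each nucleus to 1000 UMIs, with exact binomial 95% intervals. Kcnma1 was found in 54.5% (52.5 to 56.6) of neuron-like nuclei of Foxr2 p53LOF and 58.5% (57 to 60) of those of Foxr2 alone, beside 6.23% and 3.19% of immune-like nuclei. Kcna1 was found in 25.1% (23.0 to 27.4) and 55.4% (53.2 to 57.5) of oligodendrocyte-like nuclei, beside 1.96% and 2.48% of immune-like nuclei. Both stood well above that background. Kcnk13 was found in 16.7% (15.0 to 18.5) and 22.3% (17.6 to 27.7) of immune-like nuclei, beside 0.790% and 1.44% of neuron-like nuclei. Kcnj10 was found in 5.50% (4.24 to 7.0) of astrocyte-like nuclei of Foxr2 p53LOF, beside 2.36% of immune-like nuclei. In Foxr2 alone its share was 3.04% (1.63 to 5.15), within the counting interval of the immune-like share of 2.13% (0.785 to 4.57), and was not read as expression. Without thinning the shares were 98.4% and 95.2% for Kcnma1, 50.4% and 62.8% for Kcna1, 43.7% and 23.0% for Kcnk13 and 31.7% and 9.58% for Kcnj10, at median depths of 1133 to 9947 UMIs. Thinning left out 916 oligodendrocyte-like and 144 immune-like nuclei of Foxr2 alone and 14 and 32 of Foxr2 p53LOF.

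Likeness between members was described over 20 groups of at least 50 nuclei, each 1 cluster in 1 library (1 cluster enters for both libraries), which share libraries and depth, by Spearman's rho of CPM. Kcnj10 was most like Kcnj16 (0.632), its partner in mixed channels. Kcna1 was most like Kcnq3 (0.765), Kcnc2 most like Kcnb2 (0.892) and Kcnd3 most like Kcnk10 (0.755). Kcnip2 was most like Kcnh3 (0.851) and Kcnk2 (0.842), which were lower in neuron-like nuclei of Foxr2 p53LOF as well.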

How the data were processed

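RNA and ATAC counts of nuclei from 2 libraries and the peak lists of 3 were used. The authors aligned reads with Cell Ranger ARC 2.0.0 at default settings to mm10 with added vector sequences. The deposited counts are UMIs per gene and cut sites per peak, not normalized, and peak counts were divided by 2 to give fragments. Nuclei were kept at up to 5% mitochondrial UMIs, at least 400 genes and 400 fragments in peaks, and under the study's upper limits. Scrublet doublets (3.43% and 5.97%) were removed, and nuclei clustered with scanpy 1.11.5 (Leiden resolution 0.5). Kept nuclei held 60676079 UMIs in Foxr2 p53LOF and 39655628 in Foxr2 alone.

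Class names need at least 50 nuclei and rest on thresholds set after the data were seen. Medians of lists used a pseudocount of 1 CPM. Starts and strands came from GENCODE vM21, and promoter peaks overlapped by at least 1 base. Members and lists were chosen with earlier results of these data known. Named members were a set list plus up to 6 higher and 6 lower per comparison and the 5 leading members of a class. Single values of a few genes are not reported here, though the counts include them. No test was run, since each genotype had 1 library of counts. Alternatives were normalization, depth filters, doublets, clustering, the CPM minimum, the pseudocount, promoter windows and thinning.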

Additional observations from a re-analysis of the deposited data

Results flagged for a closer look

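Kcnip3, the calcium-binding subunit of Kcnd channels, stood on opposite sides in the 2 libraries. Its log2 ratio of neuron-like over glia-like nuclei was -2.26 (95% counting interval -2.38 to -2.14) in Foxr2 p53LOF, from 27.1 CPM against 130 CPM. In Foxr2 alone it was 1.39 (1.17 to 1.62), from 77.5 CPM against 29.5 CPM. The difference was not tested, since each library stands alone. Glia-like nuclei were mostly COP-like, oligodendrocyte-like and astrocyte-like in Foxr2 p53LOF and oligodendrocyte-like in Foxr2 alone, and the part of this mix in the difference was not tested.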

How the results depend on the processing

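With 1 library of counts per genotype, leaving out a replicate was not possible. No paired analysis was possible because the labels give no pairing between the genotypes, and replicate numbers only count libraries within a genotype. Of 149 planned repeats of the main counts and values, 128 stayed within 1.5 times or within the counting error and 21 moved. With a minimum of 5 CPM, 28 members reached it in oligodendrocyte-like nuclei of Foxr2 p53LOF (16 at 10 CPM), 6 were lower in its neuron-like nuclei (3) and 8 were higher in its oligodendrocyte-like nuclei (3). With at least 1000 genes and 1000 fragments per nucleus, 5 were higher in oligodendrocyte-like (3) and 4 in immune-like nuclei of Foxr2 p53LOF (11), and with doublets kept 17 were higher in immune-like nuclei. In an alternative added after seeing the data, 8 members were higher within GABAergic-like nuclei (15 in all neuron-like nuclei). Shares of nuclei followed the depth. Thinned to 500 UMIs they were, for Foxr2 p53LOF and Foxr2 alone, 31.6% and 38.0% for Kcnma1, 13.9% and 34.7% for Kcna1, 2.84% and 1.40% for Kcnj10 and 9.04% and 11.1% for Kcnk13. Unthinned they were 98.4% and 95.2%, 50.4% and 62.8%, 31.7% and 9.58%, and 43.7% for Kcnk13 in Foxr2 p53LOF. Of 702 repeats of the values of called members reported singly, 470 stayed within the counting interval, 213 moved past it in the same direction and 19 turned. Under the stricter filter these were Kcnq5 (-0.22), Kcnk10 (-0.27), Kcnma1 (-0.28) and Kcnn2 (-0.41) in immune-like nuclei. Within GABAergic-like nuclei they were Kcna4 (0.12), Kcnd3 (-0.41), Kcnh2 (-0.26), Kcnc1 (-0.13), Kcnip1 (-1.22), Kcnj2 (0.73), Kcnmb2 (-0.96), Kcns3 (-2.14), Kcnv1 (1.47) and Kcnn2 (-0.13), and within thalamic or midbrain glutamatergic-like nuclei Kcnb2 (-0.0042), Kcnc4 (-0.60), Kcnc2 (-0.47), Kcnj2 (1.09) and Kcnip2 (0.74). The cause was not tested. Depth limits the small OPC-like class and the immune-like nuclei of Foxr2 alone most, where 1 to 3 UMIs set several ratios.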
